A study of Mus musculus with 6 samples.

Results

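The transcripts described here are the subunits of the transcription factor NF-kB and the feedback genes that it switches on: Nfkb1, Nfkb2, Rela, Relb, Nfkbia, Bcl3, Tnfaip3, Tnip1, Traf1 and Birc3. They were chosen by symbol from the table of gene counts, which holds 24167 genes, and all 10 were found once and passed the filter on low counts. In liver metastases of Zdhhc17-silenced breast cancer cells, all 10 had a negative log2 fold change against metastases of control cells, with a median of -0.19. None passed the threshold of an adjusted p under 0.05. Traf1 had the largest difference, and Nfkb2 and Nfkbia had next to none. Much of the shared shift came with 1 control library, in which 9 of the 10 genes were at their highest.

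NF-kB is a family of dimers built from Rel proteins. In resting cells inhibitors of the IkB family hold the dimers in the cytoplasm. Signals from the receptors for tumour necrosis factor (TNF), interleukin-1 or microbial products lead to the loss of IkB in the canonical pathway, which releases dimers of RelA and p50. A slower, noncanonical pathway downstream of receptors such as the lymphotoxin beta receptor processes p100 to p52, the partner of RelB. Active NF-kB induces the genes of its own inhibitors and of ubiquitin-editing proteins, so that the level of these feedback transcripts is often read as a sign of recent activity. The RNA level does not show where the proteins are or whether they bind DNA.

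Of the 2 groups, shZdhhc17 metastases came from 4T1 cells, a mouse triple-negative mammary carcinoma line, that carried a lentiviral hairpin against Zdhhc17, a palmitoyltransferase gene. The shSCR metastases came from 4T1 cells with a scrambled hairpin, and both lines had been selected with puromycin. Cells (500000 per injection) went hydrodynamically into the tail vein of female BALB/c mice aged 6 to 8 weeks, and the liver metastases were taken out under a microscope on day 10, with 3 libraries in each group. Host liver, stromal and immune cells in the dissected tissue carry no hairpin, and the labels leave unsaid whether each library is 1 animal, so each p-value speaks only of the scatter among these 6 libraries. In such bulk tissue, fewer cells of a type and less RNA per cell cannot be told apart.

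Total counts ran from 15832837 to 18234406 in shZdhhc17 libraries and from 16129825 to 19186615 in shSCR libraries. Zdhhc17 itself was at 25.9, 27.8 and 26.0 CPM (counts scaled to TMM library sizes) in shZdhhc17 replicates 1 to 3, against 33.7, 32.4 and 34.2 CPM in shSCR replicates 1, 2 and 3. Its groups did not overlap, and its log2 fold change was -0.33 with an SE of 0.11 (edgeR adjusted p = 0.383). In a principal component analysis, shSCR replicate 3 stood apart on component 1 (47.8% of the variance), at 54.8 where the rest ran from -28.4 to 9.31. Component 2 (21.2%) set shZdhhc17 replicate 1 apart, at 36.9 where the rest ran from -18.0 to 7.58. Where leaving out shSCR replicate 3 moved a log2 fold change of a named gene by over 1.5 times, the value without it is given too. Hepatocyte markers (10 genes such as Alb and Apoa1) took 2.38% to 6.00% of the counts in the 6 libraries, and 12 carcinoma epithelial markers (such as Epcam and Krt8) took 0.176% to 0.352%. No marker of either list was at 0 in all libraries.

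Both canonical subunits had negative log2 fold changes, with 95% intervals that included 0. Rela, which encodes the transactivating subunit RelA (p65), had 86.4, 84.3 and 85.1 CPM in libraries 1, 2 and 3 of shZdhhc17, and 79.0, 93.2 and 102.7 CPM in shSCR replicates 1, 2 and 3. The shZdhhc17 values all lay within the wider shSCR range. For Rela the log2 fold change was -0.10 ± 0.13 (SE; edgeR adjusted p = 0.782), with a 95% interval from -0.41 to 0.20, and without shSCR replicate 3 it was -0.016. Nfkb1 encodes p105, the precursor of the DNA-binding subunit p50. It stood at 97.3, 116.2 and 109.3 CPM in shZdhhc17 libraries, against 102.8, 116.9 and 156.8 CPM in shSCR libraries. Only shSCR replicate 3 stood clear of the shZdhhc17 range. For Nfkb1 the log2 fold change was -0.22 ± 0.18 (SE; edgeR adjusted p = 0.646), with a 95% interval from -0.64 to 0.20. Without shSCR replicate 3 it was -0.032.

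Both genes of the noncanonical pair had negative log2 fold changes, and whether they differed from each other was not tested. Their 95% intervals overlapped, from -0.39 to 0.34 for Nfkb2 and from -0.59 to 0.075 for Relb. Nfkb2, which encodes p100, the precursor of p52, stood at 98.8, 96.7 and 89.1 CPM in shZdhhc17 libraries and at 81.9, 90.6 and 116.5 CPM in shSCR libraries. Its log2 fold change was the smallest of the 10 genes, at -0.022 ± 0.16 (SE; edgeR adjusted p = 0.970), and its sign turned to 0.14 without shSCR replicate 3. Exons of Nfkb2 share bases with 2 genes on the opposite strand in the GENCODE M21 annotation, Psd and a noncoding gene, and those of Bcl3 with Gm16175; whether the counting used strand is not stated in the labels or files, so some reads of these genes may not be their own. Relb, which encodes the partner of p52, stood at 27.7, 24.0 and 23.9 CPM in shZdhhc17 libraries, against 26.9, 29.5 and 34.2 CPM in shSCR libraries. Replicate 1 of each group overlapped, while the other shZdhhc17 libraries lay below every shSCR library. Relb had a log2 fold change of -0.26 with an SE of 0.14 (edgeR adjusted p = 0.515), and -0.16 without shSCR replicate 3.

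Within a library, the balance of the subunits does not depend on the scaling between libraries. The log2 ratio of summed noncanonical (Nfkb2 and Relb) to canonical (Nfkb1 and Rela) CPM was -0.54, -0.73 and -0.78 in shZdhhc17 replicates 1, 2 and 3, against -0.74, -0.81 and -0.78 in shSCR replicates 1, 2 and 3. The groups overlapped, and shZdhhc17 replicate 1 stood apart from the other libraries. The mean difference was 0.093, and it was 0.020 without shZdhhc17 replicate 1. The log2 ratio of Relb to Rela was -1.64, -1.81 and -1.83 in shZdhhc17 libraries and -1.56, -1.66 and -1.59 in shSCR libraries. Here shZdhhc17 replicate 1 fell inside the shSCR range and the other shZdhhc17 libraries below it.

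**Figure D1:**
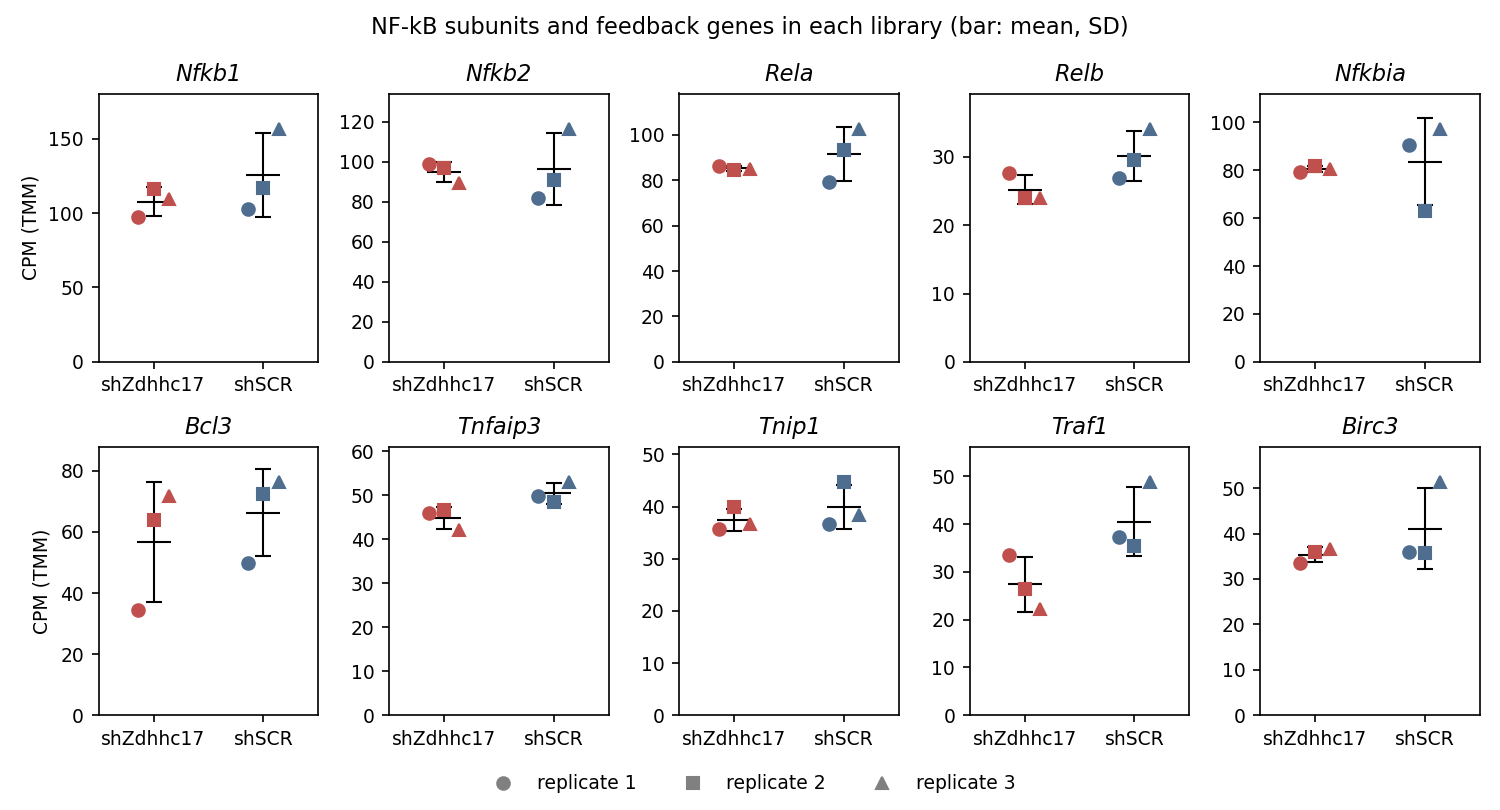
Level of each gene in CPM with TMM library sizes (y axis, from 0) in shZdhhc17 and shSCR metastases (x axis); symbols are libraries by replicate number, and bars are the mean and SD of 3. In Traf1 and Tnfaip3 the shZdhhc17 libraries all lie below the shSCR libraries, and in the other 8 genes the groups overlap.

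Nfkbia and Bcl3 belong to the IkB family. Nfkbia encodes IkB-alpha, the inhibitor that is degraded and then remade when the canonical pathway is switched on. It stood at 79.1, 81.6 and 80.5 CPM in shZdhhc17 libraries, a coefficient of variation of 1.57%, against 90.4, 62.9 and 97.4 CPM in shSCR libraries, with 21.8%. All shZdhhc17 values lay between the lowest and the next shSCR library. Between the groups, Nfkbia had a log2 fold change of -0.055 with an SE of 0.17 (edgeR adjusted p = 0.916). Its sign depended on single libraries, at 0.0071 without shSCR replicate 1, 0.067 without shSCR replicate 3 and -0.22 without shSCR replicate 2. Bcl3 encodes a nuclear IkB protein that binds p50 and p52 dimers and can activate transcription. It stood at 34.3, 64.1 and 71.7 CPM in shZdhhc17 libraries and at 50.0, 72.3 and 76.5 CPM in shSCR libraries. The spread of Bcl3 in shZdhhc17 libraries, 34.8%, was the widest of the 10 genes, and replicate 1 was the lowest library in each group. Its log2 fold change was -0.22 with an SE of 0.29 (edgeR adjusted p = 0.783), 0.046 without shZdhhc17 replicate 1 and -0.11 with shSCR replicate 3 left out instead.

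The ubiquitin-editing pair restrains signalling upstream of the IkB kinases. Tnfaip3 encodes A20, an enzyme that edits ubiquitin chains on signalling proteins. It stood at 45.9, 46.6 and 42.0 CPM in shZdhhc17 libraries, against 49.8, 48.4 and 53.1 CPM in shSCR libraries. The groups did not overlap, though the gap between the nearest libraries was small. Tnfaip3 averaged 44.9 ± 2.49 CPM in shZdhhc17 and 50.4 ± 2.38 CPM in shSCR metastases (SD, n = 3 each). Its log2 fold change was -0.17 ± 0.11 (SE; edgeR adjusted p = 0.574) and ran from -0.20 to -0.12 when each library was left out in turn. Tnip1 encodes ABIN-1, a ubiquitin-binding partner of A20. It stood at 35.8, 39.9 and 36.7 CPM in shZdhhc17 libraries and at 36.7, 44.8 and 38.4 CPM in shSCR libraries. Tnip1 was the gene that was not highest in shSCR replicate 3. Its log2 fold change was -0.093 ± 0.13 (SE; edgeR adjusted p = 0.800), and -0.0038 without shSCR replicate 2.

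Traf1 and Birc3 act next to the TNF receptors. Traf1 encodes an adaptor that binds TRAF2 and several receptors of the TNF family, and it is best known from activated lymphocytes. It stood at 33.5, 26.3 and 22.3 CPM in shZdhhc17 libraries, against 37.2, 35.5 and 48.9 CPM in shSCR libraries. All shZdhhc17 libraries lay below all shSCR libraries. Traf1 averaged 27.4 ± 5.69 CPM in shZdhhc17 and 40.5 ± 7.28 CPM in shSCR metastases (SD, n = 3 each). This is a fold of 0.676, or -0.57 on the log2 scale with an SE of 0.20 (edgeR adjusted p = 0.387) and a 95% interval from -1.03 to -0.11. In the authors' deposited table Traf1 had a log2 fold change of -0.55 and a q-value of 0.303. Birc3 encodes cIAP2, a ubiquitin ligase of the TNF receptor complex that protects cells from death. It stood at 33.5, 36.0 and 36.6 CPM in shZdhhc17 libraries and at 36.0, 35.8 and 51.4 CPM in shSCR libraries. Only shSCR replicate 3 lay above the rest. Birc3 had a log2 fold change of -0.22 with an SE of 0.17 (edgeR adjusted p = 0.636), and -0.023 without that library.

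**Figure D2:**
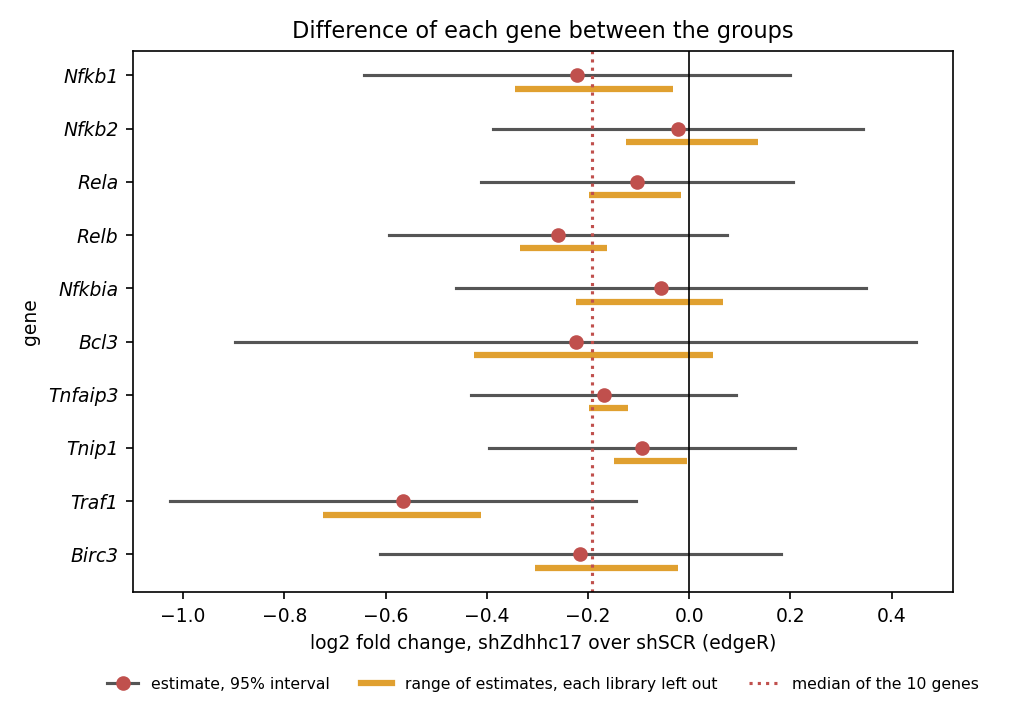
Log2 fold change of each gene, shZdhhc17 over shSCR (x axis; points with 95% intervals from edgeR), with the range of estimates when each library is left out (orange bars) and the median of the 10 genes, -0.19 (dotted line). The interval of Traf1 lies below 0, from -1.03 to -0.11, and the other 9 intervals include 0.

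Set against all genes, these counts were as follows. With edgeR, 0 of the 10 genes and 0 of all 15567 genes tested (0%) had an adjusted p under 0.05. An unadjusted p under 0.05 was found for 1 of the 10, Traf1, on the lower side, against 6.71% of all genes lower and 4.72% higher. DESeq2 called 0 of the 10, against 0.739% of all genes lower and 0.611% higher, and limma voom called 0 of the 10 and 0 of all genes. By each of these tools an unadjusted p under 0.05 was found for 1 of the 10. With limma voom such a p was found for 1682 of all 15567 genes, and with DESeq2 the share of all genes was not counted. The groups did not overlap in 2 of the 10, Traf1 and Tnfaip3, both lower in shZdhhc17, against 9.62% of all genes on that side and 7.48% on the other. A negative log2 fold change, which all 10 had, was found in 49.7% of all genes, whose median was 0.0017. A log2 fold change at or below the median of the 10 was found in 27.2% of all genes. Counts of the 10 genes ran from 338 to 2809 in a library, where counting error alone is 5.44% and 1.89%, while the coefficient of variation within a group ran from 1.20% (Rela in shZdhhc17) to 34.8% (Bcl3 in shZdhhc17).

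Many of the shared differences came with shSCR replicate 3. The 10 genes, each centred on its own mean over the 6 libraries on the log2(CPM + 1) scale, averaged -0.13, -0.046 and -0.099 in shZdhhc17 replicates 1, 2 and 3, against -0.056, 0.031 and 0.30 in shSCR replicates 1, 2 and 3. Thus shSCR replicate 1 lay among the shZdhhc17 libraries and shSCR replicate 3 far above all others. In that library 9 of the 10 genes were at their highest, against 28.5% of all genes tested. Without shSCR replicate 3, 8 of the 10 log2 fold changes were negative, with a median of -0.072. Traf1 then had -0.41 and Tnfaip3 -0.13, and these remained the 2 genes whose groups did not overlap, where 12.3% of all genes were lower without overlap. Without shSCR replicate 1, 6 of the 10 were lower without overlap (Nfkb1, Rela, Relb, Bcl3, Tnfaip3 and Traf1), against 20.3% of all genes. The coefficient of variation was larger in shSCR than in shZdhhc17 libraries for 7 of the 10 genes, against 59.7% of all genes.

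**Figure D3:**
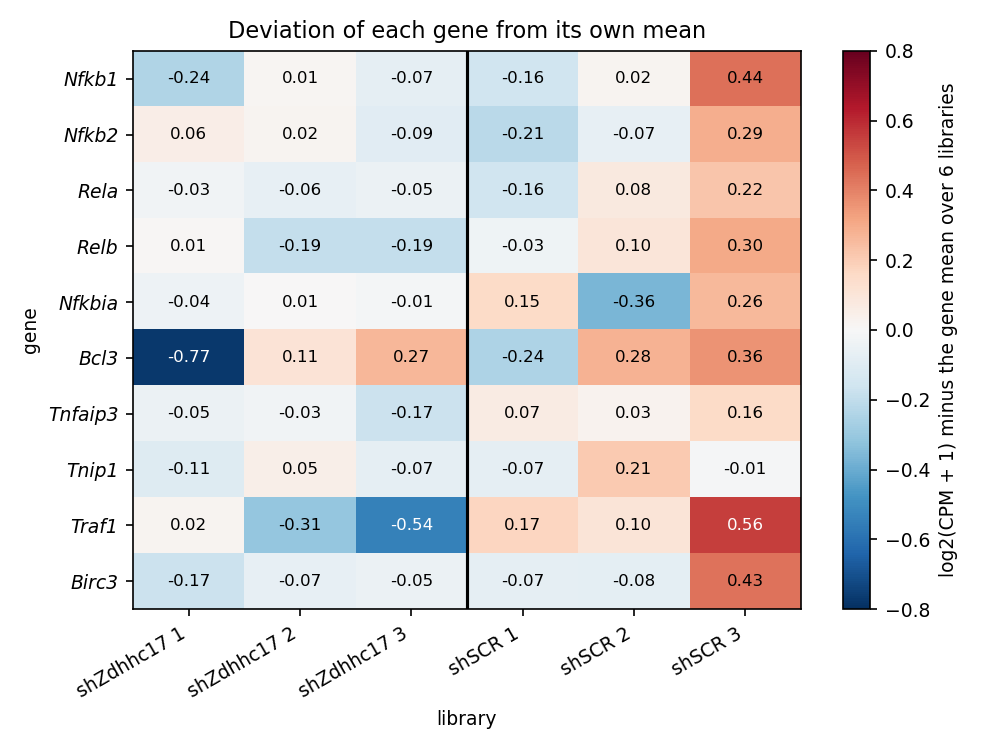
Deviation of each gene (rows) in each library (columns) from its own mean over the 6 libraries, on the log2(CPM + 1) scale, with red above and blue below the mean and the value printed in each cell. The column of shSCR replicate 3 is above the mean in 9 of 10 genes, and Bcl3 in shZdhhc17 replicate 1 is the lowest cell.

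Markers of several cell types also differed between these libraries. The summed level of 9 T cell markers was 10.3, 18.9 and 18.9 CPM in shZdhhc17 replicates 1, 2 and 3, against 12.8, 47.4 and 50.7 CPM in shSCR replicates 1, 2 and 3. All 9 T cell markers had negative log2 fold changes, though the groups overlapped for each of them. The sum of 9 dendritic cell markers, some of them NF-kB targets such as Ccl22, overlapped, from 188 to 253 CPM in shZdhhc17 and from 184 to 314 CPM in shSCR libraries, but Fscn1 made up 73.0% of it. The other 8 summed to 29.4, 47.5 and 42.4 CPM in shZdhhc17 libraries, against 50.3, 89.4 and 121 CPM in shSCR libraries, without overlap and highest in shSCR replicate 3. Itgax was the highest of these 8 in every library, at 12.4, 23.7 and 18.3 CPM in shZdhhc17 and 25.3, 49.2 and 69.1 CPM in shSCR libraries. No sum without Itgax was taken, so how far the lack of overlap depends on that gene was not tested. Zbtb46, Cd209a and Ccl22 were also lower without overlap, while Flt3, Xcr1, Clec9a and Ccr7 overlapped. Of the 9, 8 had negative log2 fold changes (median -0.95) and 4 were lower without overlap, where 9.62% of all genes were. Markers of fibroblasts and stellate cells (10 genes) ran from 3265 to 3915 CPM in shZdhhc17 and from 4034 to 7086 CPM in shSCR libraries, without overlap, but Col1a1 and Col3a1 made up 82.7% of that sum. The other 8 overlapped, from 744 to 860 CPM in shZdhhc17 and from 685 to 813 CPM in shSCR libraries, and of all 10 markers 3 were lower and 1 (Reln) was higher without overlap. These sums without the leading genes, here and below, were added after the values were seen. Neutrophil markers (11 genes) ran the other way, from 414 to 883 CPM in shZdhhc17 and from 108 to 338 CPM in shSCR libraries. Of the 11, 9 were higher without overlap, against 7.48% of all genes. S100a9 made up 37.5% of the neutrophil sum. The other 10 did not overlap either, from 256 to 568 CPM in shZdhhc17 and from 79.6 to 215 CPM in shSCR libraries. Hepatocyte markers (10 genes) ran from 46843 to 65284 CPM in shZdhhc17 and from 21460 to 54611 CPM in shSCR libraries, lowest in shSCR replicate 3, with 9 of 10 log2 fold changes positive. Carcinoma epithelial markers (12 genes) overlapped, from 1861 to 3412 CPM in shZdhhc17 and from 2346 to 3464 CPM in shSCR libraries. Of the 11 tested, 9 had negative log2 fold changes (median -0.47), where 49.7% of all genes did, and 1 was lower without overlap. Krt8 and Krt18 made up 66.3% of the sum of all 12. The other 10 also overlapped, from 604 to 1111 CPM in shZdhhc17 and from 927 to 1165 CPM in shSCR libraries. No marker of these lists was at 0 in all libraries. The sums of macrophage, B cell, endothelial and natural killer markers overlapped. Of 9 macrophage markers, 6 had positive log2 fold changes (median 0.50) and 2 were higher without overlap. All 6 B cell markers (median 0.42) and 7 of 9 endothelial markers (median 0.34) were positive. All 5 natural killer markers tested were negative (median -1.17). The groups overlapped for each B cell, endothelial and natural killer marker tested. With the mean of the hepatocyte markers as a covariate, 8 of the 10 log2 fold changes were negative, with a median of -0.091. The part of the other cell types in these differences was not tested.

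Levels can be compared between the genes only per length of transcript. Per kilobase of exon, taken from the GENCODE M21 annotation of GRCm38, Nfkbia was the highest of the 10, at 49.9 CPM per kilobase in shZdhhc17 and 51.9 in shSCR metastases. Rela followed with 27.8 in shZdhhc17 and 29.8 in shSCR, then Bcl3 with 22.9 and 26.8 and Nfkb2 with 20.7 and 21.0 in the same groups. Rela and Bcl3 overlapped in each group, as did Bcl3 and Nfkb2. Tnip1 (10.6 in shZdhhc17 and 11.3 in shSCR), Nfkb1 (8.92 and 10.4), Birc3 (7.06 and 8.20), Relb (6.49 and 7.77) and Tnfaip3 (6.21 and 6.98) came next. In shSCR libraries each neighbour of these overlapped the next. In shZdhhc17 libraries Tnip1 lay above Nfkb1 and Nfkb1 above Birc3 without overlap, and the later neighbours overlapped. Traf1 was the lowest, at 3.11 CPM per kilobase in shZdhhc17 and 4.60 in shSCR, below Tnfaip3 in every library. The exon length sums all annotated exons of a gene, so levels of genes with many alternative exons are understated.

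The promoters of the feedback genes are shown because NF-kB is known to act on several of them through the kappaB element, a decamer with a GGG start and a CC end. A RefSeq window of 250 bases before to 50 after a transcript start (GRCm38.p6) was at hand for 8 of the 10 genes, all but Nfkb1 and Relb. The kappaB consensus, searched on both strands, was present for 5 of the 8, Nfkb2, Nfkbia, Bcl3, Tnfaip3 and Tnip1, against 4.51% of 32851 windows of the same length. The first share counts genes with a match in any of their windows and the second counts single windows, so the 2 are not of the same unit. Rela, Traf1 and Birc3 had no match in the window. Nfkb2 has 3 starts in the table and Tnfaip3 2. Each Nfkb2 window held at least 1 match, and of the Tnfaip3 windows only the first did. The last 2 Nfkb2 windows overlap and share the site GGGACTTTCC, which is the only match of the last. In Bcl3 the match, GGGAAGTCCC, began 2 bases past the first base of the transcript. These genes are textbook NF-kB targets and the list was drawn up as such, so the share is a description of the list. The 130 bases before the first listed start of 4 genes with a match and of Traf1, the gene with the largest difference, are printed 5′ to 3′ on the strand of the gene, with kappaB matches in capitals; a match on the opposite strand appears as its complement, and the longer runs of Nfkb2 and Tnip1 hold overlapping matches. Nfkb2 is at chr19:46304607-46304736 on the plus strand, Nfkbia at chr12:55492648-55492777, Tnfaip3 at chr10:19015411-19015540, Tnip1 at chr11:54962941-54963070 and Traf1 at chr2:34961773-34961902, all 4 on the minus strand.
Nfkb2: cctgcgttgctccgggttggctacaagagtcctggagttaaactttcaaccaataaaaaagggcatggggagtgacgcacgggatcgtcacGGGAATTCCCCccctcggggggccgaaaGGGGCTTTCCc
Nfkbia: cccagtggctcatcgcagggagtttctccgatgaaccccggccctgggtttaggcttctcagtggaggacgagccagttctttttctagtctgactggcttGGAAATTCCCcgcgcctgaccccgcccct
Tnfaip3: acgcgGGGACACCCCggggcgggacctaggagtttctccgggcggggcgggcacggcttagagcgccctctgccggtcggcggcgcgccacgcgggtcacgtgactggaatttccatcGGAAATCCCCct
Tnip1: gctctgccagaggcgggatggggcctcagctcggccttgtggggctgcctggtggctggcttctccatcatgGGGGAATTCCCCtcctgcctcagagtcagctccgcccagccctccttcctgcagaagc
Traf1: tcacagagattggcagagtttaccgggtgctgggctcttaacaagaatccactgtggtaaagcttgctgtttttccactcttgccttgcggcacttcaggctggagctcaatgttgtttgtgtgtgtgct

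Set beside the differences between the groups, the 5 genes with a match had log2 fold changes from -0.22 (Bcl3) to -0.022 (Nfkb2). The 3 with none in the window had -0.10 (Rela), -0.22 (Birc3) and -0.57 (Traf1). Elements outside these windows were not searched, and a match in letters is not a measured binding site.

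Other genes of the pathway, on lists of 106 genes by role of which 101 could be tested, had no member past the threshold with edgeR. Negative log2 fold changes were found for 66 of the 101 (65.3%, against 49.7% of all genes), with a median of -0.11. An unadjusted p under 0.05 was found for 14 on the lower and 5 on the higher side, against 6.71% and 4.72% of all genes. The groups did not overlap for 19 lower (18.8%) and 8 higher, against 9.62% and 7.48% of all genes. DESeq2 called Tnfrsf9 on the lower side and Saa3 on the higher, and no other gene of these lists, against 0.739% of all genes lower and 0.611% higher.

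Among the remaining Rel and IkB proteins, 4 of 6 were negative. Nfkbiz, which encodes a nuclear IkB protein induced by interleukin-1 and microbial signals, stood at 31.8, 25.6 and 35.0 CPM in shZdhhc17 libraries, against 46.9, 44.3 and 52.5 CPM in shSCR libraries. The groups of Nfkbiz were well apart, and its log2 fold change, -0.64 ± 0.15 (SE; edgeR adjusted p = 0.307), was larger than that of any of the 10 genes. Nfkbid, another nuclear IkB gene, stood at 3.33, 2.45 and 3.10 CPM in shZdhhc17 libraries and at 3.60, 6.54 and 8.82 CPM in shSCR libraries (log2 fold change -1.09 ± 0.35, SE; edgeR adjusted p = 0.367). Nfkbie, which encodes IkB-epsilon, a cytoplasmic inhibitor, had -0.28 ± 0.15 (SE; edgeR adjusted p = 0.510), also without overlap, and -0.13 without shSCR replicate 3. These 3 were lower without overlap, against 9.62% of all genes, and they are the genes of the list with the smallest p. Nfkbib, which encodes the inhibitor IkB-beta and is named after its values were seen, lay on the other side without overlap, at 24.8, 26.0 and 26.2 CPM in shZdhhc17 libraries, against 23.8, 23.8 and 22.2 CPM in shSCR libraries (0.14 ± 0.12, SE; edgeR adjusted p = 0.656). The groups overlapped for Rel and Nfkbil1, as they did for Nfkbia and Bcl3.

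The kinases had the narrowest range of these lists, from -0.36 to 0.063. Of 11 tested, 8 were negative, with a median of -0.11. Tbk1, an IkB kinase relative of antiviral signalling, had -0.23 ± 0.12, Map3k8, the kinase TPL2 that p105 holds inactive, -0.36 ± 0.19, and Tab1, a partner of the kinase TAK1, -0.27 ± 0.17 (SE; edgeR adjusted p from 0.490 to 0.560). Without shSCR replicate 3, Tab1 had -0.14. Of 24 adaptors and ubiquitin enzymes, 15 were negative. Tnip2, a relative of Tnip1, had -0.46 ± 0.17 and Zc3h12a, which encodes an RNase that cuts inflammatory mRNAs, -0.55 ± 0.21 (SE; edgeR adjusted p = 0.405 for both), and Zc3h12a had -0.32 without shSCR replicate 3. Irak3, which encodes an inhibitor of Toll-like receptor signalling, stood at 4.97, 5.02 and 5.61 CPM in shZdhhc17 libraries, against 3.49, 3.66 and 3.91 CPM in shSCR libraries (0.49 ± 0.20, SE; edgeR adjusted p = 0.419).

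Receptors were split evenly, with 9 of 18 on each side. Tnfrsf9, which encodes the costimulatory receptor 4-1BB that signals through TRAF1 and TRAF2, stood at 12.6, 10.8 and 9.03 CPM in shZdhhc17 libraries, against 14.2, 24.0 and 44.1 CPM in shSCR libraries. The groups did not overlap, with replicate 1 of each group near the other. Tnfrsf9 had a log2 fold change of -1.34 with an SE of 0.39 (edgeR adjusted p = 0.337), while DESeq2 gave an adjusted p of 0.0484 and the authors' deposited table a q-value of 0.0425. Without shSCR replicate 3 it was -0.82 in edgeR (adjusted p = 0.547), and the DESeq2 adjusted p was 0.317. With DESeq2, Tnfrsf9 passed the threshold only when shSCR replicate 1 was the library left out (adjusted p = 0.000212), and adjusted p ran from 0.0534 to 0.475 when any other was. Ltbr, the lymphotoxin beta receptor gene of the noncanonical pathway, stood at 111.2, 135.0 and 143.1 CPM in shZdhhc17 libraries, against 94.8, 106.1 and 100.4 CPM in shSCR libraries (0.37 ± 0.14, SE; edgeR adjusted p = 0.405). Tlr7, a receptor for single-stranded RNA, had 0.58 ± 0.23 (SE; edgeR adjusted p = 0.410).

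Ligand genes were negative in 9 of 12 tested. Il33, an alarmin cytokine gene, stood at 40.5, 44.5 and 53.1 CPM in shZdhhc17 libraries, against 63.3, 66.8 and 69.6 CPM in shSCR libraries (-0.53 ± 0.14, SE; edgeR adjusted p = 0.307). Tnfsf13b, which encodes the B cell survival factor BAFF, a ligand of the noncanonical pathway, stood at 1.51, 2.21 and 1.71 CPM in shZdhhc17 libraries and at 1.58, 5.13 and 14.2 CPM in shSCR libraries. The difference in Tnfsf13b, -1.94 ± 0.72 on the log2 scale (SE; edgeR adjusted p = 0.405), rested on shSCR replicates 2 and 3, since replicate 1 lay within the shZdhhc17 range. Without shSCR replicate 3 it was -0.89. Il1b, the interleukin-1 beta gene, had -0.40 ± 0.15 (SE; edgeR adjusted p = 0.405).

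Further target genes were negative in 22 of 31 tested. The extremes were Saa3 at 2.05 and Ccl5, a chemokine gene, at -1.43; Ccl5 overlapped between the groups and is named after its values were seen. Saa3, which encodes a serum amyloid protein of acute inflammation, stood at 51.7, 40.9 and 72.2 CPM in shZdhhc17 libraries, against 11.0, 17.3 and 11.4 CPM in shSCR libraries (2.05 ± 0.27, SE; edgeR adjusted p = 0.204, DESeq2 adjusted p = 9.94e-09, and at most 1.61e-05 when any 1 library was left out). Ccl22, a chemokine gene of dendritic cells and macrophages, stood at 2.39, 4.24 and 2.57 CPM in shZdhhc17 libraries, against 5.18, 6.75 and 10.9 CPM in shSCR libraries (-1.31 ± 0.36, SE; edgeR adjusted p = 0.322). Lif, a cytokine gene of the interleukin-6 family, had -0.73 ± 0.26 (SE; edgeR adjusted p = 0.387), and -0.41 without shSCR replicate 3.

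**Figure D4:**
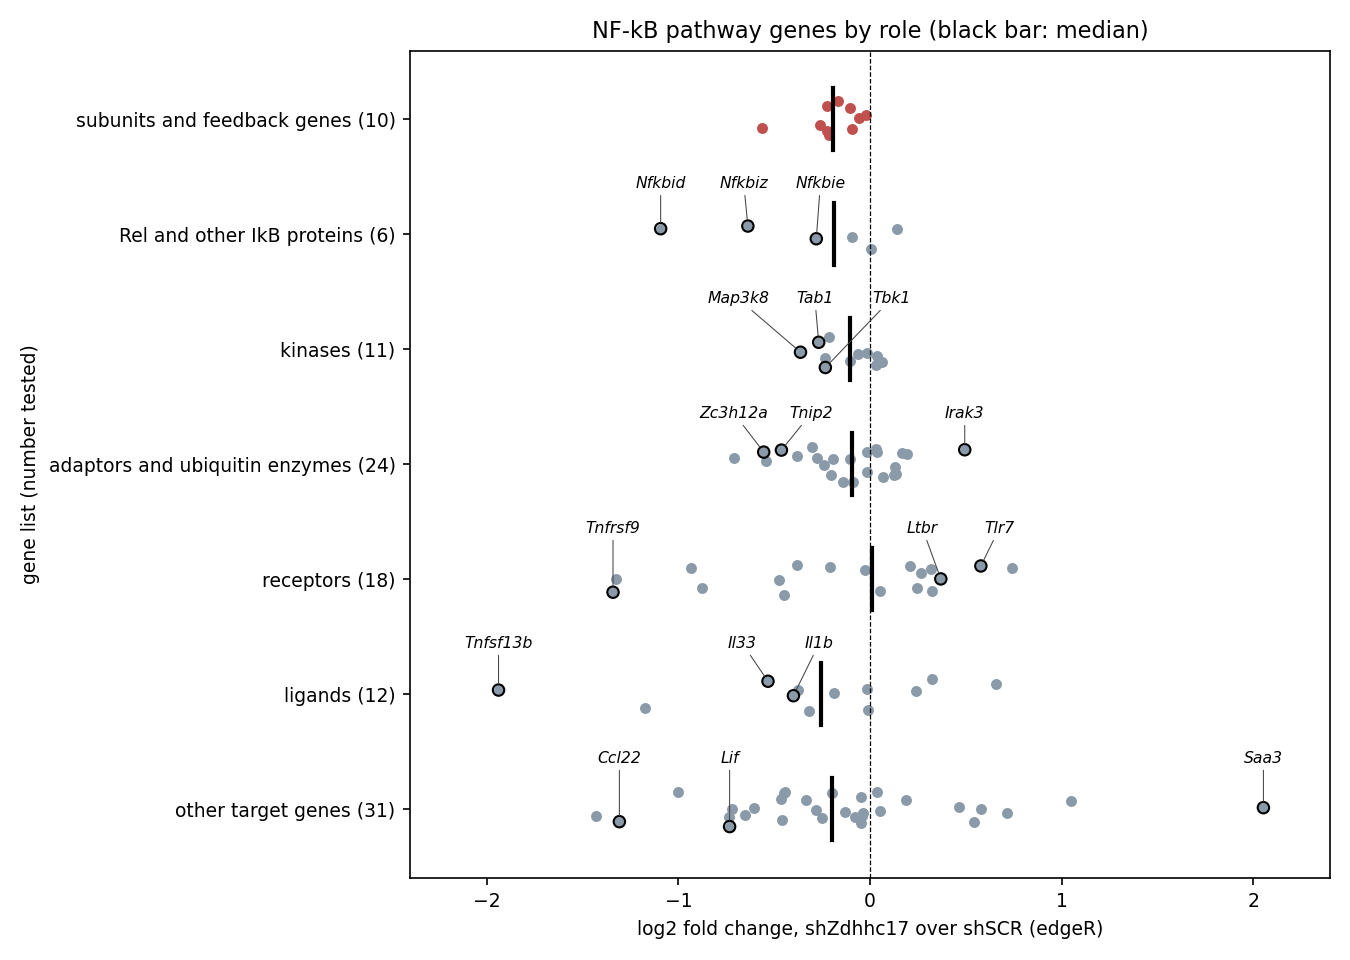
Log2 fold change, shZdhhc17 over shSCR (x axis; edgeR), of the 10 subunit and feedback genes and of other pathway genes by role (rows, with the number tested); black bars are medians, and ringed, named points are the 3 genes of a list with the smallest p. The 10 genes sit between -0.57 and -0.022, within the spread of the lists below them, where Saa3 at 2.05 and Tnfsf13b at -1.94 are the extremes.

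The deposited Hallmark set of TNF signalling via NF-kB holds 200 genes, all 10 described here among them. In the authors' deposited table it had a normalized enrichment score of -1.74 with a q-value of 0.0278, and of the 10 genes Traf1 alone is among the 57 of its leading edge. Without the 10, 187 of its genes were tested here. Of these, 126 had a negative log2 fold change (67.4%), 0 had an edgeR adjusted p under 0.05, 20 had an unadjusted p under 0.05 on the lower and 2 on the higher side, and DESeq2 called 8 lower and 0 higher. Of all genes, 49.7% were negative, 6.71% and 4.72% had such an unadjusted p on the lower and higher side, and DESeq2 called 0.739% and 0.611%. The median of these 187 genes was -0.12, against -0.19 for the 10 and 0.0017 for all genes. The other 16 deposited sets with NF-kB in their name had q-values of at least 0.219 in the authors' deposited table.

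Over the 6 libraries, the genes outside the list whose centred log2(CPM + 1) profile was most like the mean profile of the 10 were Terf2, a telomere-binding protein gene, Tmub2 and D17H6S53E, out of 11547 candidates with a mean of at least 5 CPM. Their root mean square differences from it were 0.0297, 0.0300 and 0.0313. Among the 10, Rela (0.0736), Birc3 (0.0757) and Nfkb1 (0.0886) lay closest to the shared profile, and Traf1 (0.263) and Bcl3 (0.334) farthest. Terf2 stood at 27.4, 30.5 and 29.9 CPM in shZdhhc17 libraries, against 29.3, 31.3 and 38.7 CPM in shSCR libraries, the same shape with shSCR replicate 3 on top.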

How the data were processed

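Polyadenylated RNA went into a stranded kit that marks strand with dUTP, per the labels' protocols. Per the submitters' processing notes the tools include STAR 2.6.1, HTSeq, DESeq2 1.34.0 and FastQC 0.11.8, with no role given, and the build is GRCm39. The authors deposited raw counts per gene for the 6 libraries. Their deposited tables also hold log2 fold changes with p-values and q-values from DESeq2, a ranking score, and enrichment scores per gene set, per the file headers; the column description names another contrast, the tables name this one.

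The test was edgeR 4.0.16 (robust glmQLFit and glmQLFTest, two-sided, R 4.3.3) on the counts, with TMM, filterByExpr (15567 of 24167 genes) and Benjamini-Hochberg adjustment over all of them. SE comes from the log2 fold change and F. The script was tested on simulated data. Alternatives were DESeq2 1.42.0, limma 3.58.1 voom, other scalings and filters, a replicate block, a hepatocyte covariate and leaving out libraries. Named genes are Zdhhc17, the 10 members, the 3 smallest p of each pathway list and the 3 nearest profiles. Members and lists were chosen with earlier results of these data known. Promoter sequences are of GRCm38.p6, so no coordinates were joined with the counts. No libraries were repeats: even the nearest replicates had a chi-square per gene of 14.7.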

Additional observations from a re-analysis of the deposited data

How the results depend on the processing

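None of the 10 genes passed under any of the 21 alternatives, the smallest adjusted p being 0.0604 (DESeq2 without shZdhhc17 replicate 1). With library totals alone the median of the 10 was -0.33. Over leave-one-out fits it ran from -0.25 to -0.072, and the count of the 10 without overlap from 2 to 6. The share of all genes lower without overlap also rose, from 9.62% with all libraries to between 12.3% (without shSCR replicate 3) and 20.3% (without shSCR replicate 1). The subunit ratio difference ran from 0.020 to 0.14, and was 0.021 with means of log2 values. Signs turned for Nfkb2 (0.13 with the hepatocyte covariate, 0.025 without shZdhhc17 replicate 3, 0.14 without shSCR replicate 3), Nfkbia (0.016 with the covariate, 0.0071 and 0.067 without shSCR replicates 1 and 3) and Bcl3 (0.046 without shZdhhc17 replicate 1); the cause was not tested. Over leave-one-out fits these 3 genes ran from -0.12 to 0.14, -0.22 to 0.067 and -0.42 to 0.046. Over all genes, edgeR called 3 without a filter, 2 with the covariate and 0 to 1 without a library. DESeq2 called 210; with shZdhhc17 replicates 1, 2 and 3 left out in turn it called 371, 98 and 34, and with shSCR replicates 1, 2 and 3 left out 705, 117 and 105. Whether the replicate numbers pair the libraries is not stated in the labels. Same-numbered deviations from the group means correlated at -0.059, 0.32 and -0.046, but with 3 libraries in each group these values cannot decide it. With the replicate block the median was -0.18, and 0 genes were called.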
